A study of Mus musculus with 12 samples.

Results

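The mitochondrial genome carries 37 genes in the annotation of the mouse genome used here, all with symbols that begin with mt-: 13 for proteins, 2 for ribosomal RNAs (rRNAs) and 22 for transfer RNAs (tRNAs). They were taken by that prefix alone, out of 55401 genes in the files of the stressed mice. The libraries were bulk RNA sequencing of cells labelled as monocytes, isolated magnetically from the meninges (the membranes around the brain) of male C57BL/6J mice. One group of 3 libraries came from unstressed mice. The other 9 came from mice restrained over 18 days and then given vehicle, psilocybin (the precursor of a serotonin receptor agonist) or MDMA (an amphetamine that releases serotonin), with tissue taken 24 hours later and 3 libraries per group. The sources used here do not give doses, ages or whether each library is a separate animal, so p-values reflect only how these libraries spread, which may be partly technical. The 13 protein genes were counted in all 12 libraries, and the rRNA and tRNA genes only in the 9 stressed ones, because the annotation used for the unstressed files does not list them.

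Mitochondrial DNA is a small circle kept in many copies per cell. Its strands are each transcribed as long precursors, which are cut at the tRNAs that lie between most genes, so genes that share a precursor can still differ in the amount of mature RNA through processing and decay. The protein genes encode core subunits of the respiratory chain (complexes I, III and IV) and of the ATP synthase (complex V), while the remaining subunits, the mitochondrial ribosomal proteins and the RNA-processing enzymes are made from nuclear genes. Nuclear DNA also holds fragments of mitochondrial origin, and a read from a mitochondrial RNA can match such a fragment.

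The protein genes fell into 7 with many counts in every library and 6 with almost none. Of the 6, 5 are matched almost throughout by nuclear copies, and the last, mt-Atp8, has no exact annotated copy of 50 bases or more. A block of 7 annotated pseudogenes on chr1:24611535-24616197 (minus strand, mm10) repeats the stretch of the mitochondrial genome from within mt-Co1 to within mt-Nd4. Over the 4149 bases of the 7 pseudogenes, 4142 were identical to the mitochondrial gene and 7 differed. Gm28661 (a copy of mt-Co2), Gm10925 (mt-Atp6), Gm28437 (mt-Co3), Gm10222 (mt-Nd4l) and Gm28439 (the start of mt-Nd4) had no difference. Gm28438, the copy of mt-Nd3, had 1 (T3C, counted from the first base of the gene). The sequences of both starts are shown because this base is the only one that separates the gene from its copy, and it stands in capitals.
mt-Nd3, chrM:9459-9518, plus strand: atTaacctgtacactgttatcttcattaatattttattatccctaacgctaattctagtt
Gm28438, chr1:24613060-24613119, minus strand: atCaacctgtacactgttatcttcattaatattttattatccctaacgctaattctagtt
Gm29216, the copy of the end of mt-Co1, held the other 6 differences, all near the edge of the block (T1056A, C1057T, A1059G, A1060G, C1062A and A1066T, counted from the first base of mt-Co1). These bases are in capitals in the next lines, and they show where the near-identity begins.
mt-Co1, chrM:6381-6440, plus strand: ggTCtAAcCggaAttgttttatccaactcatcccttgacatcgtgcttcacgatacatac
Gm29216, chr1:24616138-24616197, minus strand: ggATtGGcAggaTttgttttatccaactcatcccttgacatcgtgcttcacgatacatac

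The genes inside this block had next to no counts in any library. mt-Co2 (a complex IV subunit), mt-Atp8 and mt-Atp6 (the ATP synthase subunits) had 0 counts in all 12. A count of 0 allows 3 counts among 39470913, or 0.076 CPM (counts scaled to the library's total), as a limit on what was assigned to them, which is no limit on their RNA where copies take part. mt-Co3 (complex IV) had 2 counts in all, and mt-Nd4l (complex I) had 2. mt-Nd3 (complex I) had 6, 13 and 14 counts in the unstressed libraries, 1, 3 and 0 in the vehicle, 17, 19 and 24 in the psilocybin and 11, 1 and 4 in the MDMA libraries. When each gene was read in windows of 50 bases, 100% of the windows of mt-Co2, 99.5% of mt-Atp6, 99.9% of mt-Co3, 98% of mt-Nd3 and 98.8% of mt-Nd4l had an exact copy in another annotated transcript. The share was 62.2% for mt-Nd4, 51.1% for mt-Co1, 8.19% for mt-Nd2, 7.61% for mt-Nd5, 1.04% for mt-Rnr2 and 0 for mt-Nd1, mt-Nd6, mt-Cytb and mt-Rnr1. mt-Atp8 had no such window. The 161 of its 204 bases that are its own lie in the 233 bases between the copied part of mt-Co2 and mt-Atp6. The chromosome 1 copies of those genes also lie 233 bases apart. The end of mt-Atp8 overlaps the start of mt-Atp6, which Gm10925 repeats without a difference.

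The recorded counting command of the unstressed files had no option to count reads that map to several places, and the sources used here do not give that of the stressed files. The pseudogenes themselves had few counts in the 9 stressed libraries, from 2 for Gm28438 to 94 for Gm29216. The levels of mt-Co2, mt-Atp6, mt-Co3 and mt-Nd4l cannot be read from these counts, that of mt-Atp8 is uncertain because it lies inside the copied stretch, those of mt-Nd3 rest on very few reads, and counts of mt-Co1 and mt-Nd4 may stand for part of the gene only. What became of the reads of these genes was not tested.

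**Figure D1:**
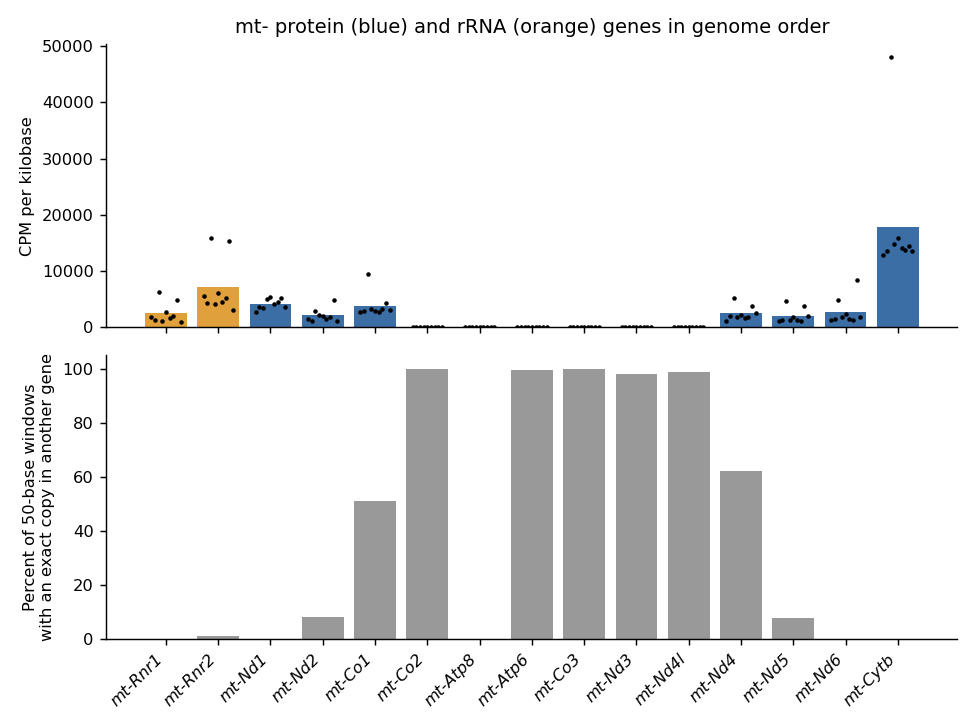
The upper panel shows the mean level of each protein and rRNA gene over the 9 stressed libraries in CPM per kilobase of gene (bars; points are libraries), and the lower panel shows the percent of its 50-base windows with an exact copy in another annotated transcript. mt-Co2, mt-Atp6, mt-Co3, mt-Nd3 and mt-Nd4l have copies in 98% of windows or more and bars at or near 0. mt-Atp8 is at 0 with no such window.

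Some libraries stood apart, and several results rest on them. Library totals ran from 807725 (vehicle library 2) to 5136953 counts (MDMA library 3). Expression profiles correlated at 0.901 to 0.951 between psilocybin libraries, at 0.824 to 0.856 between unstressed and at 0.799 to 0.93 between MDMA libraries, but at 0.476 to 0.614 between vehicle libraries. Vehicle libraries 1 and 3 had counts in 10349 and 9525 of the 27588 genes that the files share, against 13468 to 17931 in the other libraries. Markers of the labelled cell type were low beside those of the choroid plexus epithelium, which makes cerebrospinal fluid. Over the 12 libraries the monocyte genes Ly6c2, Ccr2 and Lyz2 had 0 to 259, 1 to 624 and 218 to 3826 counts, and the choroid plexus genes Ttr and Enpp2 3816 to 201565 and 17616 to 276600. The sum of 10 monocyte markers was 366 to 2310 CPM. The sums of fibroblast markers (792 to 14000 CPM) and of endothelial and mural markers (2690 to 4710 CPM) were also above it in every library. Neutrophil markers summed to 23.8 to 46.1 CPM in unstressed, 91.1 to 187 in vehicle, 102 to 977 in psilocybin and 542 to 2480 in MDMA libraries. Summed over 14 choroid plexus markers, all found in both kinds of file, levels were 15900 to 41200 CPM in unstressed, 13400 to 129000 in vehicle, 65800 to 120000 in psilocybin and 23300 to 45300 in MDMA libraries. In such bulk samples, fewer cells of a type and less RNA per cell cannot be told apart.

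The 13 protein genes took 8.02%, 3.69% and 8.36% of all counts in unstressed libraries 1 to 3 and 2.73%, 3.08% and 9.43% in the vehicle libraries. They took 3.51%, 3.78% and 3.14% in the psilocybin and 3.23%, 4.99% and 3.33% in the MDMA libraries. The group means were 6.69% ± 2.6 (SD, n = 3), 5.08% ± 3.77, 3.47% ± 0.322 and 3.85% ± 0.985 in the same order. The high values were unstressed libraries 1 and 3 and vehicle library 3, and the remaining 9 libraries lay between 2.73% and 4.99%. With the rRNA and tRNA genes included, the share was 3.81%, 3.9% and 12.5% in the vehicle, 4.3%, 5.01% and 4.03% in the psilocybin and 4.26%, 7.88% and 3.92% in the MDMA libraries. Vehicle library 3, with the highest share, also had the fewest genes with a count and the lowest choroid plexus sum (13400 CPM), and the part of either in the share was not tested.

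**Figure D2:**
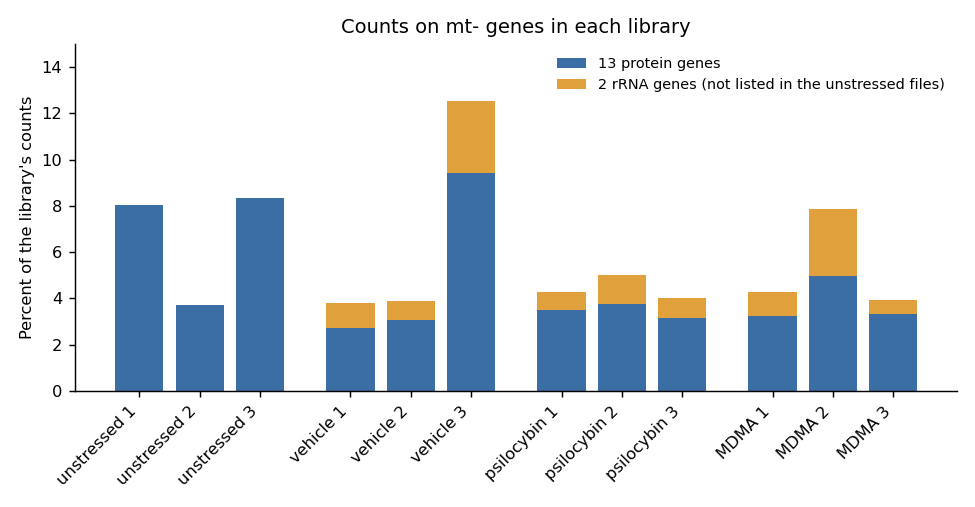
Each bar is 1 library, with the percent of its counts on the 13 protein genes (blue) and the 2 rRNA genes (orange, not listed for unstressed mice); tRNA genes are too low to draw. Vehicle library 3 reaches 12.5% with its tRNA genes, and the psilocybin libraries stay between 4.03% and 5.01%.

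mt-Cytb encodes cytochrome b, the only subunit of complex III made in the mitochondrion (chrM:14145-15288, plus strand). It had the highest level per kilobase of whole gene length among the protein genes in 12 of 12 libraries. When only bases outside nuclear copies were taken as length, mt-Co1 was higher in MDMA library 2 (17500 against 14400 CPM per kilobase) and lower in the others. Ranked by counts among the shared genes, mt-Cytb was at place 1 in every unstressed library, at place 1 again in vehicle library 3, and at place 2 or 3 in the rest. Its level was 46600, 21600 and 50400 CPM in the unstressed libraries (137288, 86587 and 226901 counts) and 14800, 15500 and 54900 CPM in the vehicle libraries (53683, 12516 and 107250 counts). It was 16900, 18100 and 16200 CPM in the psilocybin libraries (57038, 47155 and 66071 counts) and 15700, 16500 and 15600 CPM in the MDMA libraries (55858, 47113 and 80002 counts). The drug libraries thus formed a narrow band below all 3 unstressed libraries, and the vehicle libraries overlapped both, with 2 below that band and 1 far above it. Of all genes tested, 18.5% after psilocybin and 10.7% after MDMA were below unstressed mice with no overlap.

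Complex I passes electrons from NADH to ubiquinone, and 7 of its subunits are mitochondrial genes, of which mt-Nd1, mt-Nd2, mt-Nd4, mt-Nd5 and mt-Nd6 were well counted. mt-Nd1 (chrM:2751-3707) stood at 3590, 1920 and 2690 CPM in the unstressed, 2590, 3400 and 3280 in the vehicle, 4830, 5150 and 3920 in the psilocybin and 4330, 4970 and 3490 in the MDMA libraries. All 6 drug libraries were above the 3 vehicle libraries, and the psilocybin libraries were also above the unstressed ones. Of all genes tested, 20.8% after psilocybin and 16.8% after MDMA were likewise above vehicle with no overlap. After psilocybin 18.3% were so above unstressed mice. mt-Nd1 was the only well-counted protein gene with higher means after both drugs than in either other group: 2730 ± 837, 3090 ± 438, 4640 ± 641 and 4270 ± 743 CPM (SD, n = 3) in the order unstressed, vehicle, psilocybin, MDMA.

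mt-Nd2 (chrM:3914-4951), on the same strand as mt-Nd1 and next to it but for 3 tRNA genes, did not show this order. Its level was 3110, 1740 and 2480 CPM in the unstressed, 1540, 1280 and 3010 in the vehicle, 2260, 2200 and 1600 in the psilocybin and 1910, 5110 and 1190 in the MDMA libraries, so every pair of groups overlapped. The ratio of mt-Nd1 to mt-Nd2 counts was 1.16, 1.11 and 1.08 in the unstressed and 1.68, 2.66 and 1.09 in the vehicle libraries. It was 2.14, 2.34 and 2.44 in the psilocybin and 2.27, 0.974 and 2.93 in the MDMA libraries. Vehicle library 3 lay with the unstressed libraries, MDMA library 2 lay below every other library, and the remaining 7 stressed libraries lay above all unstressed ones. The unstressed files were counted on another annotation, in which mt-Nd1 and mt-Nd2 keep 957 and 1038 bases of their own against 955 and 1036 in the stressed files' annotation, where neighbouring tRNAs overlap them. Among the stressed libraries, which share an annotation, the ratio ran from 0.974 to 2.93. The part of the annotation in the difference from the unstressed libraries was not tested.

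mt-Nd4 (chrM:10167-11544) was at 5000, 2730 and 4760 CPM in the unstressed, 1560, 2740 and 7280 in the vehicle, 2680, 3150 and 2330 in the psilocybin and 2620, 5140 and 3530 in the MDMA libraries. mt-Nd5 (chrM:11742-13565) was at 7490, 2760 and 8090, then 2060, 2560 and 8660, then 2510, 3360 and 2350, and then 2140, 7010 and 3600 CPM in the same order. Both followed mt-Cytb in the unstressed and vehicle groups, where unstressed library 2 and vehicle libraries 1 and 2 were low. They departed from it in MDMA library 2, which was high for both but not for mt-Cytb.

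mt-Nd6 (chrM:13552-14070, minus strand) is the only protein gene on the light strand, the strand that carries few genes. Its end overlaps the end of mt-Nd5 on the opposite strand by 14 bases, in capitals here, each gene read 5′ to 3′ in its own direction.
mt-Nd5 end, chrM:13526-13565: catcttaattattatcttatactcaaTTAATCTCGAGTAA
mt-Nd6 end, chrM:13552-13591: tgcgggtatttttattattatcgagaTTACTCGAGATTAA
Its level was 2770, 1110 and 2780 CPM in the unstressed, 652, 820 and 2570 in the vehicle, 963, 1200 and 786 in the psilocybin and 723, 4380 and 1000 in the MDMA libraries. Per 100 counts of mt-Nd5, mt-Nd6 had 27.8 to 40.1 in 11 libraries and 62.5 in MDMA library 2. No strand option was recorded for the unstressed files and none is given for the stressed ones, so RNA from the opposite strand may be counted with mt-Nd6.

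Complex IV, which reduces oxygen, was represented by mt-Co1 alone (chrM:5328-6872), its catalytic subunit. It stood at 11700, 5080 and 12400 CPM in the unstressed, 4140, 4500 and 14700 in the vehicle, 4940, 4570 and 4170 in the psilocybin and 4940, 6770 and 4930 in the MDMA libraries. Its pattern over libraries was that of mt-Cytb, with unstressed libraries 1 and 3 and vehicle library 3 at or above 11700 CPM and the other 9 at or below 6770.

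The mitochondrial ribosome contains 2 rRNAs, transcribed ahead of mt-Nd1 from the heavy-strand promoter region, and both were counted only in stressed mice. mt-Rnr1 (the 12S rRNA, chrM:70-1024) was at 1850, 1340 and 6020 CPM in the vehicle, 1170, 2670 and 1630 in the psilocybin and 1970, 4660 and 965 in the MDMA libraries. mt-Rnr2 (the 16S rRNA, chrM:1094-2675) was at 8830, 6860 and 25100, then 6630, 9590 and 7210, and then 8290, 24200 and 4850 CPM. Vehicle library 3 and MDMA library 2 were the high libraries for both genes, and no group was apart from another. mt-Rnr2 had 3.59 to 5.66 counts per count of mt-Rnr1 in the 9 libraries. The rRNA genes together had 17.5 to 39.1 counts per 100 protein-gene counts in 8 libraries and 58 in MDMA library 2. Library preparation steps can remove rRNA or select polyadenylated RNA, and the sources used here do not say which was used, so these ratios describe the libraries rather than the cells.

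**Figure D3:**
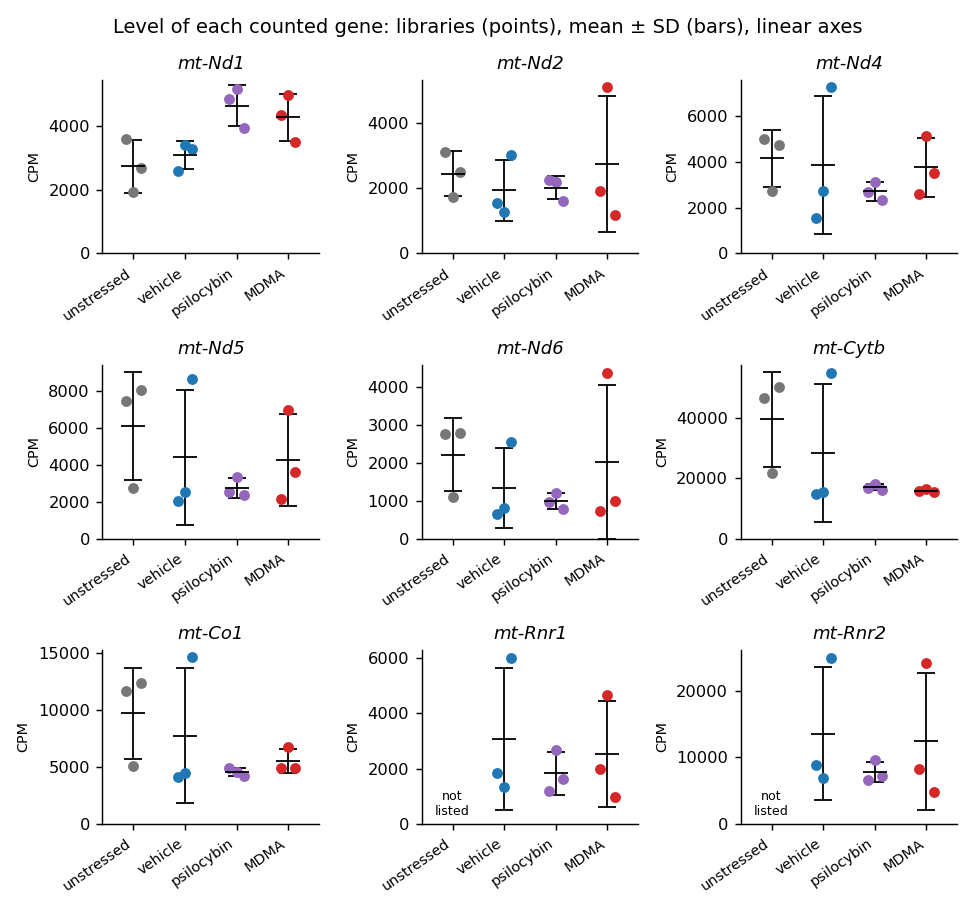
Each panel shows the level of 1 gene in CPM on a linear axis that starts at 0, with a point per library and the group mean ± SD (n = 3) in black; a bar that would pass below 0 stops there. mt-Nd1 is the panel in which all 6 drug libraries lie above the 3 vehicle libraries, and in the other panels vehicle library 3 or MDMA library 2 is the highest point. Of all genes tested, 20.8% after psilocybin and 16.8% after MDMA were above vehicle with no overlap.

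The 22 tRNA genes, of 59 to 75 bases each, had 1454 counts in all over the 9 stressed libraries, and 9 of them had none (mt-Tw, mt-Ty, mt-Ts1, mt-Td, mt-Tk, mt-Tg, mt-Th, mt-Ts2 and mt-Tl2). A count of 0 among 28008501 allows up to 0.107 CPM as a limit on what was assigned to a gene. Of those without a count, mt-Ts1, mt-Td, mt-Tk and mt-Tg lie inside the stretch that the chromosome 1 copies span. Their levels are uncertain, as is that of mt-Atp8. The 8 genes of the minus strand held 1390 counts against 64 on the 14 genes of the plus strand, a contrast that rested on mt-Tp and mt-Tc. Each of the other minus-strand genes had 0 to 34 counts, and each plus-strand gene 0 to 28. No strand option is given for these libraries, so RNA from the opposite strand may be counted with these genes. mt-Tp, for proline, held 1239 counts, 85.2% of the total, and mt-Tc, for cysteine, 83. The next gene had 34. Their sequences are shown with that of mt-Th, a plus-strand gene without a count, since their lengths and layout are alike while their counts are not; the anticodon, found by a script from the loop and its stem, is in capitals.
mt-Tp, chrM:15356-15422, minus strand: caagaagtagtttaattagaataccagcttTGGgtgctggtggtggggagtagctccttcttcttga
mt-Tc, chrM:5192-5257, minus strand: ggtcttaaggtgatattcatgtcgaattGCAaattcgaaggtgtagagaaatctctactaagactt
mt-Th, chrM:11546-11612, plus strand: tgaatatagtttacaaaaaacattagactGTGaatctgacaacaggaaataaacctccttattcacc
mt-Tp was at 77.3, 37.1 and 39.4 CPM in the vehicle, 59.8, 45.7 and 47.1 in the psilocybin and 33.1, 37.4 and 22.2 in the MDMA libraries, so the psilocybin libraries were all above the MDMA ones, as were 7.93% of the genes tested over these libraries, and the vehicle libraries overlapped both. mt-Tc had 0, 1 and 0 counts in the vehicle, 33, 3 and 21 in the psilocybin and 15, 4 and 6 in the MDMA libraries. mt-Tq (glutamine) had 2, 1 and 2, then 6, 4 and 3, and then 9, 3 and 4 counts, mt-Tl1 (leucine) 4, 0 and 3, then 3, 3 and 3, and then 5, 1 and 6, and mt-Tn (asparagine) 0, 0 and 0, then 4, 1 and 1, and then 4, 2 and 7. Mature tRNAs are short and heavily modified and enter such libraries poorly, so these counts say little of tRNA abundance.

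How counts divided among the protein genes was steadier than their total for some genes and less so for others. mt-Co1 took 12.1% to 15.5% of the protein-gene counts in the 12 libraries, a span of 1.28 times, although its CPM spanned 3.54 times. mt-Cytb took 58%, 58.5% and 60.3% in the unstressed, 54.2%, 50.3% and 58.2% in the vehicle, 48.1%, 48% and 51.7% in the psilocybin and 48.5%, 33% and 46.7% in the MDMA libraries. All 6 drug libraries were below the unstressed ones, and MDMA library 2 was lowest by a wide margin. mt-Nd1 took 4.48%, 5.2% and 3.21%, then 9.46%, 11% and 3.47%, then 13.8%, 13.6% and 12.5%, and then 13.4%, 9.98% and 10.5%. Its span of 4.29 times was the widest of the 7 well-counted protein genes, followed by mt-Nd6 with 3.93 times. On this measure the psilocybin libraries lay above all unstressed and vehicle libraries, MDMA lay above unstressed, and vehicle library 3 lay with the unstressed libraries and not with the other vehicle libraries. Shares within a total depend on each other, so a low share of mt-Cytb and a high share of mt-Nd1 are not separate measurements.

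**Figure D4:**
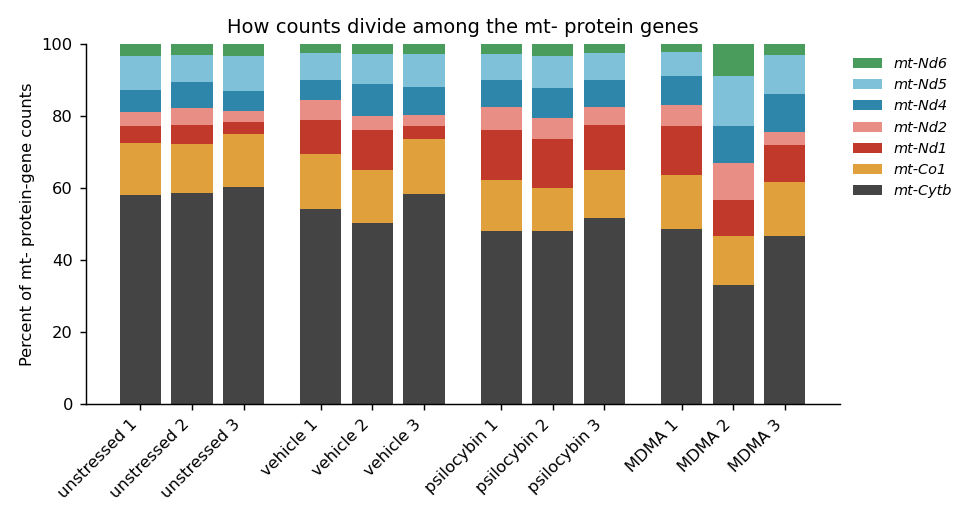
Each bar divides the protein-gene counts of 1 library among the 7 well-counted genes, in percent. The mt-Nd1 share is 3.21% to 5.2% in the unstressed libraries and 12.5% to 13.8% in the psilocybin libraries, the mt-Co1 share stays between 12.1% and 15.5%, and MDMA library 2 has the lowest mt-Cytb share (33%) and the highest mt-Nd6 share.

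Per kilobase of gene, mt-Cytb was followed by mt-Nd1 in 7 libraries, by mt-Co1 in 4 and by mt-Nd6 in 1. The level of mt-Cytb per kilobase was 3.29 to 5.74 times that of mt-Co1 and 2.77 to 15.7 times that of mt-Nd1. These orders use whole gene lengths, and that of mt-Co1 is uncertain because of its nuclear copies.

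None of the mitochondrial genes passed an adjusted p of 0.05 in any comparison (edgeR quasi-likelihood tests over all genes, Benjamini-Hochberg adjustment). Of the 13 protein genes, 8 passed the filter on low counts (the 7 above and mt-Nd3) and were tested over the 12 libraries among 13945 genes. None of the 8 was called in vehicle against unstressed mice, where 3.36% of all genes were called, in psilocybin against vehicle (0.0143%), in MDMA against vehicle (0.667%), in psilocybin against MDMA (0%) or in psilocybin or MDMA against unstressed mice (0.0789% each). At an unadjusted p under 0.05 there was 1 member of 8, mt-Cytb, in each of MDMA against vehicle, psilocybin against unstressed and MDMA against unstressed. Of the 13945 genes, 2334, 881 and 691 reached it in the same order. In the fit of the 9 stressed libraries, 12 of the 37 genes were tested (those 8, both rRNAs, mt-Tp and mt-Tc) among 14331, and none was called in any of the 3 comparisons (0% of all genes in each). At an unadjusted p under 0.05 the only one was mt-Tc, in psilocybin against vehicle, where 1852 of 14331 genes reached it. Without the filter on low counts this fit called 3 members in psilocybin against vehicle (0.209% of all genes) and 1 in MDMA against vehicle (0.712%). DESeq2 called no member in any of these comparisons, though over the 12 libraries it gave mt-Cytb no adjusted p.

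After restraint with vehicle, mt-Cytb differed from unstressed mice by -0.13 ± 0.55 (log2 difference ± standard error), mt-Co1 by 0.01 ± 0.56 and mt-Nd1 by 0.37 ± 0.37, with adjusted p-values of 0.93, 0.994 and 0.652 (edgeR). This comparison crosses the annotations as well as the stress, and the annotation cannot be told apart from the stress. None of the 8 genes had groups that did not overlap, against 2.77% of all genes higher and 17.8% lower with no overlap. The median log2 difference of the 8 was -0.08 and that of all genes -0.18. The signs of the small differences of mt-Co1, mt-Cytb, mt-Nd2, mt-Nd4 and mt-Nd5 in this comparison turned under another scaling, and that of mt-Nd1 did not.

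After psilocybin, mt-Cytb and mt-Co1 had lower means than after vehicle, with log2 differences of -1.08 ± 0.56 and -1.10 ± 0.57 and an adjusted p of 0.375 for each (edgeR). Both rested on vehicle library 3: without it they were 0.18 and 0.10. mt-Nd1 differed by 0.40 ± 0.37 (adjusted p = 0.666, edgeR) with no overlap between the groups. mt-Nd3, on 60 counts against 4, differed by 2.55 ± 1.28 (adjusted p = 0.357, edgeR), also with no overlap. Without vehicle library 2 it was called on 60 counts against 1 (adjusted p = 0.0293, edgeR; 0.0293 to 0.956 over all alternatives), in a fit that called 24.5% of all genes. mt-Nd1 and mt-Nd3 were the 2 of 8 members higher with no overlap, against 20.8% of all genes. The rRNAs differed by -1.19 ± 0.77 (mt-Rnr1) and -1.21 ± 0.73 (mt-Rnr2), with adjusted p-values of 0.612 and 0.574 (edgeR). The median of the 8 protein genes was -0.81, beside 0.31 for all genes.

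mt-Tc had 57 counts after psilocybin and 25 after MDMA against 1 after vehicle. Scaled to library size, these are ratios of 30.2 (exact 95% counting interval 5.2 to 1210) and 11.3 (1.85 to 463), which cover counting error only. In the fit of the 9 libraries its log2 differences were 4.32 ± 1.52 and 3.03 ± 1.54, with adjusted p-values of 0.218 and 0.448 (edgeR). mt-Tc passed the filter on low counts only through the drug libraries, so its direction was not open to the test. Without vehicle library 2, the one with the single count, the vehicle group was at 0 and the adjusted p after psilocybin was 0.0364 (0.0364 to 0.604 over all alternatives, edgeR), in a fit that called 23.6% of all genes.

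After MDMA, mt-Cytb differed from vehicle by -1.23 ± 0.56 (adjusted p = 0.283, edgeR). Here too the sign rested on vehicle library 3, without which the difference was 0.039, while without vehicle library 2 it was -1.60 with an adjusted p of 0.0451 (0.0451 to 1 over all alternatives), in a fit that called 25% of all genes. mt-Nd1 differed by 0.24 ± 0.37 (adjusted p = 0.814, edgeR) and was the 1 of 8 members higher with no overlap, against 16.8% of all genes. The median of the 8 was -0.08 and that of all genes 0.24.

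Between psilocybin and MDMA libraries, mt-Cytb differed by 0.15 ± 0.55, mt-Co1 by -0.24 ± 0.56, mt-Nd5 by -0.64 ± 0.67 and mt-Nd1 by 0.16 ± 0.37, with an adjusted p of 1 for each (edgeR). MDMA library 2 was the highest of the 6 for mt-Co1 and mt-Nd5. mt-Nd3, at 5.03, 7.3 and 5.88 CPM after psilocybin and 3.08, 0.35 and 0.779 after MDMA, differed by 2.17 ± 1.16 (adjusted p = 1, edgeR). It was the 1 of 8 members higher with no overlap, beside 7.76% of all genes. The median of the 8 was -0.35 and that of all genes 0.02.

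Setting the drug groups beside unstressed mice, like setting vehicle beside them, crosses the annotations as well as the stress. The annotation cannot be told apart from the stress here. After psilocybin, mt-Cytb differed by -1.21 ± 0.56 (adjusted p = 0.782, edgeR) and mt-Co1 by -1.09 ± 0.57 (adjusted p = 0.862), and both were lower with no overlap, 2 of 8 against 18.5% of all genes. mt-Nd1 differed by 0.77 ± 0.37 (adjusted p = 0.804, edgeR) and mt-Nd3 by 1.11 ± 1.11 (adjusted p = 0.999), and both were higher with no overlap, 2 of 8 against 18.3%. After MDMA, mt-Cytb differed by -1.36 ± 0.56 (adjusted p = 0.819, edgeR) and was the 1 of 8 lower with no overlap, against 10.7% of all genes. The unstressed group is shared by these and the vehicle comparison, so they are not separate evidence. The psilocybin group median of the 8 was -0.85 (0.02 for all genes) and the MDMA median -0.34 (0.04).

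**Figure D5:**
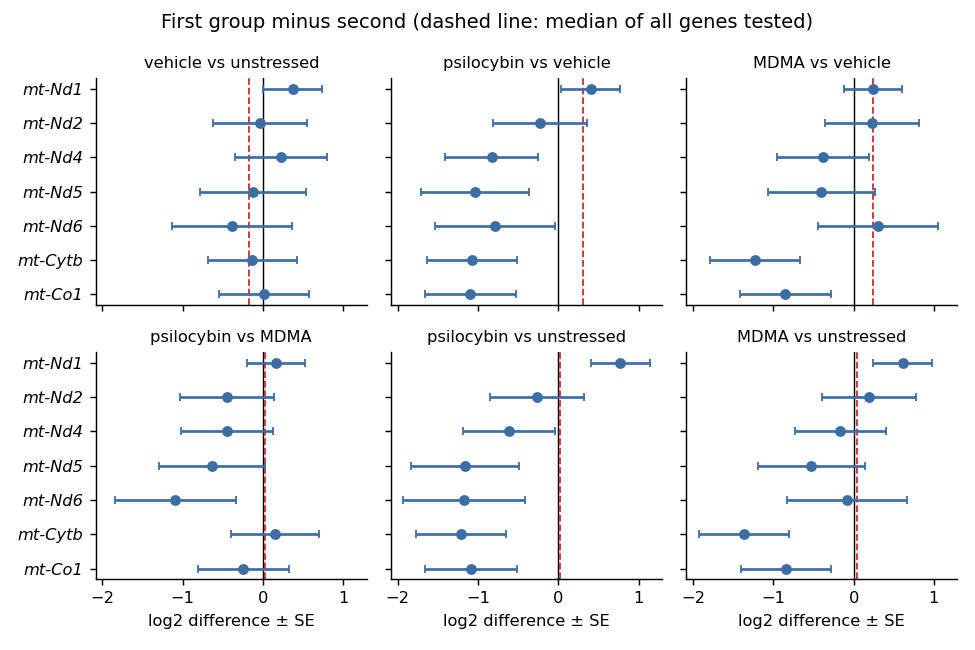
Log2 differences ± standard error for the 7 well-counted protein genes in the 6 comparisons, first group minus second, with the median of all genes tested as a dashed line. mt-Cytb and mt-Co1 lie near 0 in vehicle against unstressed mice, with signs that turn under another scaling, and to the left in the drug comparisons with vehicle or unstressed mice, mt-Nd1 lies to the right of 0 in all 6, and no value passed the test; mt-Nd3 is not drawn.

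Nuclear genes that serve the mitochondrial genome were described from 9 lists. Of the genes that maintain and transcribe mitochondrial DNA, 16 of 18 were tested and 1 passed, in 1 comparison: Primpol, a primase-polymerase, had 6.17, 30.4 and 11.3 CPM after MDMA and 0 counts in every vehicle library. It was at least 25.3-fold higher after MDMA, taking 3 counts over the vehicle group as the floor (adjusted p = 0.0498, edgeR). Primpol and Trmt10c, described next, were the 2 of 137 tested genes of the first 4 lists called in MDMA against vehicle, beside 0.667% of all genes. Of 26 genes of mitochondrial RNA processing, 25 were tested. Trmt10c is a subunit of the enzyme that cuts tRNA 5′ ends and so frees the mRNAs between them. It had 64.4, 39.2 and 22.2 CPM in the unstressed and 0.276, 3.71 and 0 in the vehicle libraries. The log2 difference of vehicle from unstressed was -5.38 ± 1.15 (adjusted p = 0.0346, edgeR). Trmt10c has 3002 bases of its own in the stressed files' annotation against 1846 in the other. It had 40.1, 61.5 and 48.1 CPM after MDMA, a difference of 5.62 ± 1.16 from vehicle (adjusted p = 0.0498, edgeR). There was no overlap in either comparison, as for 17.8% of all genes (lower in vehicle than unstressed) and 16.8% (higher after MDMA than vehicle). Fastkd5, which takes part in cutting mRNAs that no tRNA borders, had 27.8, 16.2 and 14.4 CPM in the unstressed and 1.38, 0 and 0 in the vehicle libraries (log2 difference -4.76 ± 1.21, adjusted p = 0.0483, edgeR). It was at 4.61 to 7.4 CPM in the drug libraries, and 1049 of its bases belong to it alone in the stressed files' annotation against 2905 in the other.

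The list of mitochondrial ribosomal proteins, 77 genes all tested, had 1 call, Mrpl53, lower in vehicle than in unstressed libraries (0 against 233 counts, adjusted p = 0.049, edgeR). It had 0 counts in all 9 stressed libraries and passed the filter on low counts only through the unstressed group, so its direction was not open to the test. Only 95 of its bases belong to it alone in the stressed files' annotation against 606 in the other, so the files may count it differently. The mitochondrial aminoacyl-tRNA synthetases, 19 genes all tested, had 1 call, Aars2, which charges the alanine tRNA. It had 194 counts in the unstressed and 1 in the vehicle group, a ratio of 93.6 (exact 95% counting interval 16.6 to 3720, adjusted p = 0.0415, edgeR). Aars2 has 4765 bases of its own in the stressed files' annotation against 3850 in the other. The calls of vehicle against unstressed were 4 among these 4 lists of 137 tested genes, Mrpl53 among them, all lower, beside 3.13% of all genes called lower. All 5 named genes had 0 counts in at least 1 of vehicle libraries 1 and 3, the libraries with the fewest genes counted, and the part of that in the calls was not tested. The sign of all 6 differences held under every alternative, but each call was lost under 11 to 17 of 22 of them, among these the fit of only the 2 groups compared (adjusted p = 0.273 for Mrpl53 to 0.628 for Trmt10c after MDMA, edgeR).

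The nuclear subunits of the respiratory complexes and the ATP synthase had 82 tested members, and none was called in any comparison over the 12 libraries (edgeR). At an unadjusted p under 0.05 (edgeR) there were 6 of 82 in vehicle against unstressed mice, where 2582 of 13945 genes reached it. There were 4 (2221 of all genes) in psilocybin and 5 (2334) in MDMA against vehicle, and 15 (82) in psilocybin against MDMA. Against unstressed mice there were 5 (691) in MDMA and 38 (881) in psilocybin. The number of calls between psilocybin and unstressed mice depended on which libraries were fitted. With only those libraries, 46 of the 82 were called, all higher after psilocybin, beside 10.3% of all genes. Without vehicle library 3 there were 4 (0.813% of all genes), without vehicle libraries 1 and 3 together 32 (4.92%), and with DESeq2 6 (1.75%), all higher. This comparison crosses the annotations, and only 6 of the tested subunits had nearly the same exons in both. In the fit of such genes over the 12 libraries, none of the 6 was called (0% of all genes). At an unadjusted p under 0.05 (edgeR) there were 4 of the 6, beside 104 of 2441 genes. The part of the annotation in the calls was not tested. The summed level of the nuclear subunits was 6350, 10200 and 5550 CPM in the unstressed, 19700, 11400 and 4230 in the vehicle, 18600, 18000 and 15100 in the psilocybin and 12200, 8220 and 7250 in the MDMA libraries. The psilocybin libraries were above all unstressed and MDMA libraries, and the vehicle libraries ran from the lowest to the highest value of the 12. Per nuclear count, the mitochondrial protein genes had 12.6, 3.63 and 15.1 counts in the unstressed, 1.39, 2.7 and 22.3 in the vehicle, 1.89, 2.09 and 2.08 in the psilocybin and 2.65, 6.07 and 4.59 in the MDMA libraries. The choroid plexus sums were 120000, 65800 and 68600 CPM in the psilocybin libraries and 129000 in vehicle library 1, which had the 4 highest nuclear sums. Vehicle library 2 had the same choroid plexus sum as psilocybin library 2 and a lower nuclear sum. In the unstressed libraries the choroid plexus sums were 41200, 15900 and 39500 CPM, lowest where the nuclear sum was highest. The part of these cells in the nuclear sums was not tested.

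Between psilocybin and unstressed mice, the median log2 difference was 1.29 for 39 tested subunits of complex I, 1.06 for 4 of complex II, 0.99 for 9 of complex III, 2.41 for 14 of complex IV and 1.79 for 17 of complex V, beside 0.02 for all genes and -0.85 for the mitochondrial protein genes (Ndufa4 counts in both complex I and complex IV here). The genes with the smallest p of complexes I to IV were all from this comparison: Ndufa1 (2.71 ± 0.93, adjusted p = 0.488, edgeR), Sdhd (1.73 ± 0.64, adjusted p = 0.579), Uqcrh (2.74 ± 0.71, adjusted p = 0.217) and Cox6a1 (3.06 ± 0.83, adjusted p = 0.24). With only those 2 groups fitted, their adjusted p-values were 0.0295, 0.0221, 0.0148 and 0.0221 in the same order (edgeR). In that order they had 419, 1231, 1237 and 702 bases of their own in the stressed files' annotation. In the other annotation they had 477, 1285, 546 and 533. For complex V the gene with the smallest p was Atp5a1, with 778, 716 and 680 CPM in the vehicle and 384, 321 and 398 in the unstressed libraries (1.17 ± 0.35, adjusted p = 0.0777, edgeR). Its adjusted p was 0.00417 with DESeq2 and 0.00417 to 0.604 over all alternatives. It had 3006 bases of its own in the stressed files' annotation against 2321 in the other.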

How the data were processed

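The deposited values were raw counts per gene. The submitters' processing notes name STAR 2.7.5c, fastp 0.23.2, edgeR 3.42.4 and featureCounts 2.0.1 and the build mm10. Per the file headers, unstressed libraries were counted over RefSeq exons; stressed libraries carry Ensembl identifiers, and their counting command is not given in the sources used here. Of the genes, 27588 were joined by symbol or exon position (GENCODE vM21); 3 columns of no sample used here were not analysed. CPM use library totals. edgeR 4.0.16 (TMM, filterByExpr, quasi-likelihood, no block; R 4.3.3) was fitted to all 12 libraries and to the 9 stressed ones. It was also run on simulated data with the same spread for all genes and no deviating libraries. That run says nothing of how the fit handles the vehicle libraries. Group and number came from sample titles. Deviations of same-numbered libraries from their group correlated weakly between psilocybin and vehicle (0.112, 0.213 and 0.115). The correlations were also all positive between psilocybin and MDMA (0.225, 0.0237 and 0.214) and between vehicle and unstressed libraries (0.02, 0.131 and 0.0953). In the remaining comparisons some or all were negative. Whether the number pairs libraries is thus unknown, and its meaning is not given. The reported fits ignore it, and it entered as a block only in an alternative. Copies were searched in GENCODE vM21 transcripts, the source of all sequences. All protein and rRNA genes, the 5 most counted tRNA genes and, per nuclear list, up to 4 called genes or the gene with the smallest p are named. Members and lists were chosen with earlier results of these data known. Alternatives changed the scaling, tool, filter, samples and annotation.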

Additional observations from a re-analysis of the deposited data

How the results depend on the processing

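Counts of mitochondrial genes past the threshold stayed at 0 in all 9 fitted comparisons under other scalings, DESeq2, limma voom, a mean of at least 5 CPM, only the 2 groups compared and the removal of vehicle libraries 1 and 3 together, and in the 6 over 12 libraries with the exon-matched genes. With the replicate number as a block they were also 0. The block ended all 6 calls of nuclear genes (adjusted p 0.0975 to 0.15, edgeR), none of them between psilocybin and vehicle. Without a filter, the fit of the 9 libraries called 3 after psilocybin (mt-Rnr2, mt-Co1 and mt-Cytb; 0.209% of all genes) and 1 after MDMA (mt-Cytb; 0.712%) against vehicle; the cause was not tested. Leaving out 1 library gave 0 to 1 in each drug comparison with vehicle over 12 libraries, and 0 to 2 for psilocybin against vehicle over 9, the calls coming without vehicle library 2 (mt-Nd3, mt-Cytb and mt-Tc). Over the 9 libraries mt-Nd3 passed the filter on low counts only through the psilocybin libraries (5.03 to 7.3 CPM), so its direction was not open to the test there.

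Directions were less stable. Without vehicle libraries 1 and 3, the psilocybin difference from vehicle became 0.20 for mt-Co1 and 0.31 for mt-Cytb, and the MDMA difference of mt-Cytb 0.17. Leaving out 1 library, these ranged from -1.52 to 0.10 (mt-Co1), -1.51 to 0.18 and -1.60 to 0.039 (mt-Cytb). Of 84 member differences, 55 changed sign under at least 1 alternative, the largest of them 1.44 in size. The mitochondrial share of psilocybin libraries was 4.44% with all genes, 3.47% with protein genes only and 3.56% over genes in both kinds of file. DESeq2's size factors moved the median of all genes from 0.31 to 0.12 in psilocybin against vehicle. Calls over all genes ran from 0 to 3665 in vehicle against unstressed (468 as reported), 0 to 3538 in psilocybin (2) and 0 to 3616 in MDMA (93) against vehicle, and 0 to 1379 and 0 to 415 in psilocybin and MDMA against unstressed mice (11 each).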
